A study of Arabidopsis thaliana with 12 samples.

Results

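The 44 genes described here are the nuclear genes of the Arabidopsis photosystems and of their light-harvesting antennae, out of 27655 genes in the expression table. They were listed by locus identifier, with no threshold on their values. They comprise 15 LHCB genes of the antenna of photosystem II, 6 LHCA genes of the antenna of photosystem I, 12 PSA genes for subunits of photosystem I and 11 PSB genes for subunits of photosystem II. Whole seedlings, 7 days old, gave 12 messenger RNA libraries, 3 in each of 4 groups, and the values are TPM (transcripts scaled to a total of 1000000 per library). The groups were fve-4 after 12 h at 27 °C, fve-4 kept at 21 °C, wild-type Columbia (Col) after 12 h at 27 °C and Col kept at 21 °C. fve-4 carries a mutant allele of FVE, whose WD40-repeat protein works with histone deacetylases. The series asks how FVE takes part in the growth response to warmth. All 4 groups were raised at 21 °C in short days of 8 h light and 16 h dark. The warm groups were moved at ZT1 (1 h after lights on), and every group was collected at ZT13, which is 5 h after lights off. All values therefore belong to a single time in the dark. The labels do not say whether the libraries of a group came from separate cultures, so that the tests measure the spread between these libraries.

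Photosystem II splits water and photosystem I reduces ferredoxin. Each has a chlorophyll-binding core made partly in the chloroplast, subunits encoded in the nucleus, and an outer antenna of LHC proteins that are all encoded in the nucleus. LHCB1, LHCB2 and LHCB3 form the trimers of light-harvesting complex II (LHCII), LHCB4, LHCB5 and LHCB6 are the monomeric antenna proteins CP29, CP26 and CP24, and LHCA1 to LHCA4 form the antenna belt of photosystem I. Many of these genes are known for strong daily rhythms in their messenger RNA, with LHCB1.1 (also named CAB2) a standard reporter of the plant clock.

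The reads recovered behind the TPM values numbered from 11465313 to 14566379 per library, and all 44 members had at least 49 reads in every library and passed the filter on low values. That filter asked for a TPM of 1 or more in 3 or more libraries and left 19863 genes to test. FVE (AT2G19520) checked the genotype labels, with 7.00, 6.82 and 6.64 TPM in fve-4 at 27 °C and 4.89, 5.48 and 5.08 TPM in fve-4 at 21 °C. In Col it had 39.3, 41.6 and 39.9 TPM at 27 °C and 52.7, 51.8 and 50.3 TPM at 21 °C. In the whole seedlings, all 7 mesophyll markers, 11 of 12 root markers, all 6 markers of epidermis and guard cells and all 3 of the vasculature had TPM above 0 in every library. The root nitrate transporter NRT2:1 was listed at 0 in 1 or more libraries. Summed root markers were 3095, 2321 and 2395 TPM in fve-4 at 27 °C and 2336, 2217 and 1865 TPM in Col at 27 °C. Of the 6 warm libraries fve-4 replicate 1 held the most and Col replicate 3 the least. In bulk seedlings, fewer cells of a type and less RNA per cell cannot be told apart.

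The upstream sequences of the LHCB1 copies that fell, of the LHCB2 genes, which rose, and of the pair LHCB4.1 and LHCB4.2 are shown first. Each is given as the 250 bases before the annotated gene start. They were read from the RefSeq genome TAIR10.1, 5′ to 3′ on the strand of the gene. Capitals mark the motifs searched on both strands: CACGTG (the G-box), GATAAG (the I-box), AAAATATCT (the evening element), AAAAATCT (a binding site of the clock factor CCA1) and CCAATC (a sequence reported for the chloroplast regulators GLK1 and GLK2). LHCB1.1 (AT1G29920), LHCB1.2 (AT1G29910) and LHCB1.3 (AT1G29930) are neighbours without introns on chromosome 1, at 10474656 to 10475969 on the minus strand, 10472280 to 10473502 on the minus strand and 10477885 to 10479114 on the plus strand.
LHCB1.1 (chr1:10475970-10476219, minus strand): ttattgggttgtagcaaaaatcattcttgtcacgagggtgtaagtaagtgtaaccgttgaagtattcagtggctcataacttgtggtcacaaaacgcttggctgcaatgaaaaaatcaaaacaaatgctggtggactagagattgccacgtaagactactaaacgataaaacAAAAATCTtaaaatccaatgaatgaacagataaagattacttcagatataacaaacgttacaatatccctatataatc
LHCB1.2 (chr1:10473503-10473752, minus strand): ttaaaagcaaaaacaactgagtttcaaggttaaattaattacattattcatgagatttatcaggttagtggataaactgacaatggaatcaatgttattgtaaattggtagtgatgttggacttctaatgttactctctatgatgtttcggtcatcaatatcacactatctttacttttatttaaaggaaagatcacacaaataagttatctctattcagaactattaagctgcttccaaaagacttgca
LHCB1.3 (chr1:10477635-10477884, plus strand): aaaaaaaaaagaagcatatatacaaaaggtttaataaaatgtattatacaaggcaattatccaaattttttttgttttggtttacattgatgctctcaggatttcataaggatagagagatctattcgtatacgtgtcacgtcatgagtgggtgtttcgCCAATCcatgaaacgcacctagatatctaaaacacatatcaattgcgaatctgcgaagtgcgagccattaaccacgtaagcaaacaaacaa
The proteins these genes encode are nearly one and the same. LHCB1.1 and LHCB1.2 gave identical proteins of 267 residues, and LHCB1.3 differed from each by 1 residue. Their coding sequences were 95.6% to 96.4% identical, but the 250 bases upstream were 49.2% to 54.4% identical. The motifs found were a single CCA1-binding site in LHCB1.1 and a single CCAATC in LHCB1.3. LHCB1.4 and LHCB1.5, the LHCB1 copies that rose, are not shown. The window of LHCB1.4 also held a CCA1-binding site, and that of LHCB1.5 also held CCAATC. LHCB2.1 (AT2G05100), LHCB2.2 (AT2G05070) and LHCB2.3 (AT3G27690), which rose, are shown for comparison.
LHCB2.1 (chr2:1824481-1824730, minus strand): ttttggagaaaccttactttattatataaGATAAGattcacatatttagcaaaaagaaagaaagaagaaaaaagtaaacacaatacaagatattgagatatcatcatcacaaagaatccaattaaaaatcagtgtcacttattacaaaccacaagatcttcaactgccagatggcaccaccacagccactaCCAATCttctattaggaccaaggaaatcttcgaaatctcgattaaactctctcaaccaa
LHCB2.2 (chr2:1800473-1800722, minus strand): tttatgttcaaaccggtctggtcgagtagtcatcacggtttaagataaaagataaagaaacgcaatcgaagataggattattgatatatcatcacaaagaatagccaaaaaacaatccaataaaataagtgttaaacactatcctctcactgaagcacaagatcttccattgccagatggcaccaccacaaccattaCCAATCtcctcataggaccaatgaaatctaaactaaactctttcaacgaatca
LHCB2.3 (chr3:10255656-10255905, plus strand): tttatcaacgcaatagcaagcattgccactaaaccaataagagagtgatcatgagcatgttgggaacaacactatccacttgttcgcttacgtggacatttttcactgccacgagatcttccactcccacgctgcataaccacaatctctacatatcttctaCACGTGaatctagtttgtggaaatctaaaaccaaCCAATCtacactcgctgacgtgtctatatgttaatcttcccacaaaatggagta
The 3 LHCB2 windows each held CCAATC, with its first base at 59, 53 and 54 bases before the start in LHCB2.1, LHCB2.2 and LHCB2.3, and LHCB2.1 also held an I-box and LHCB2.3 a G-box. LHCB4.1 (AT5G01530) and LHCB4.2 (AT3G08940) are a pair for the same CP29 protein, 88.6% identical in residues, of which LHCB4.2 rose far more.
LHCB4.1 (chr5:208616-208865, plus strand): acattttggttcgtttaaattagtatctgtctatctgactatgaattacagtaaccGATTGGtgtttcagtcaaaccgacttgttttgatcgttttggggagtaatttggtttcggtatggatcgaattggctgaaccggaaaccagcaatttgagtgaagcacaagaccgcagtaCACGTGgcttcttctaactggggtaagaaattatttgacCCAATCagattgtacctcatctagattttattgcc
LHCB4.2 (chr3:2717307-2717556, plus strand): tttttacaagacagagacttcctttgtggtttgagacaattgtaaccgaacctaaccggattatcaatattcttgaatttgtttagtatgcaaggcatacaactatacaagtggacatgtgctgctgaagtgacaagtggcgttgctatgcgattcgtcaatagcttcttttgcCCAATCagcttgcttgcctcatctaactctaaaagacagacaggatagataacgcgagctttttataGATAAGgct
Both held CCAATC, and LHCB4.1 also held a G-box and LHCB4.2 an I-box.

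Likeness between copies limits how far their reads can be told apart. Of all windows of 100 bases in the transcripts of LHCB1.1, LHCB1.2, LHCB1.3 and LHCB1.4, 95.6%, 98.5%, 95.9% and 96.7% occurred in no other transcript on either strand. With windows of 50 bases these shares were lower, at 79.5%, 89.4%, 78.0% and 86.3%. For LHCB1.5 (AT2G34420) the share was 0% with either length, because the antisense non-coding gene AT2G08665 covers the whole of it. The library kit is not stated to mark strand, so the reads of both cannot be told apart. The lowest shares after that with windows of 100 bases were 44.2% in PSAG, 53.0% in PSAH1, 63.7% in LHCB2.3 and 76.0% in PSAE1. Each came through an overlapping gene on the opposite strand. LHCB2.2 and LHCB2.1, which resemble each other, had 87.6% and 90.1%, and 71.8% and 77.3% with windows of 50 bases.

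The 44 genes together made up a large part of the deposited TPM of the seedlings even in the dark. The gene lengths behind those TPM include introns, so levels per exon length differ. LHCB1.3, for instance, averaged 31058 TPM as deposited in Col at 21 °C, against 22945 TPM per exon length. The summed level of the 44 genes was 8.65% ± 0.27 of all deposited TPM in fve-4 at 27 °C and 9.89% ± 0.15 in fve-4 at 21 °C. It was 9.18% ± 0.34 in Col at 27 °C and 9.85% ± 0.28 in Col at 21 °C (SD, n = 3 each). The 5 LHCB1 copies gave 31027 ± 1953 TPM in fve-4 at 27 °C and 44726 ± 995 TPM in fve-4 at 21 °C. They gave 34279 ± 1537 TPM in Col at 27 °C and 44217 ± 1411 TPM in Col at 21 °C. Without the LHCB1 copies the sum was not lower in the warm: the other genes gave 55456 ± 780.4 TPM in fve-4 at 27 °C and 54139.7 ± 810.3 TPM in fve-4 at 21 °C, with 57489 ± 1911 TPM in Col at 27 °C and 54284 ± 1392 TPM in Col at 21 °C. At 27 °C, fve-4 replicate 1, with the most root marker RNA, had the lowest sum of its group at 8.34%. Col replicate 3 at 27 °C, with the least, had the highest of its group at 9.52%. The lowest sum in Col at 27 °C, 8.83%, was in replicate 2, while replicate 1 held the most root marker RNA there. In fve-4 at 21 °C replicate 2 had the most root marker RNA (2477 TPM) and the lowest sum (9.71%). In Col at 21 °C replicate 1 had the least root marker RNA (2854 TPM) and also the lowest sum (9.55%). The part of tissue makeup in these sums was not tested. Summed mesophyll markers, which are other photosynthesis genes, were also lower in the warm, at 29067 TPM in fve-4 at 27 °C against 36108 TPM in fve-4 at 21 °C. In Col they were 30379 TPM at 27 °C against 37222 TPM at 21 °C. Most of that sum was RBCS1A, at 19634 TPM in fve-4 at 27 °C against 25729 TPM in fve-4 at 21 °C. In Col RBCS1A had 20590 TPM at 27 °C against 26810 TPM at 21 °C. The means of GLDP1, SBPASE, GAPA and PRK were also lower at 27 °C in both genotypes, that of CA1 in fve-4 alone and that of RCA in neither.

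**Figure D1:**
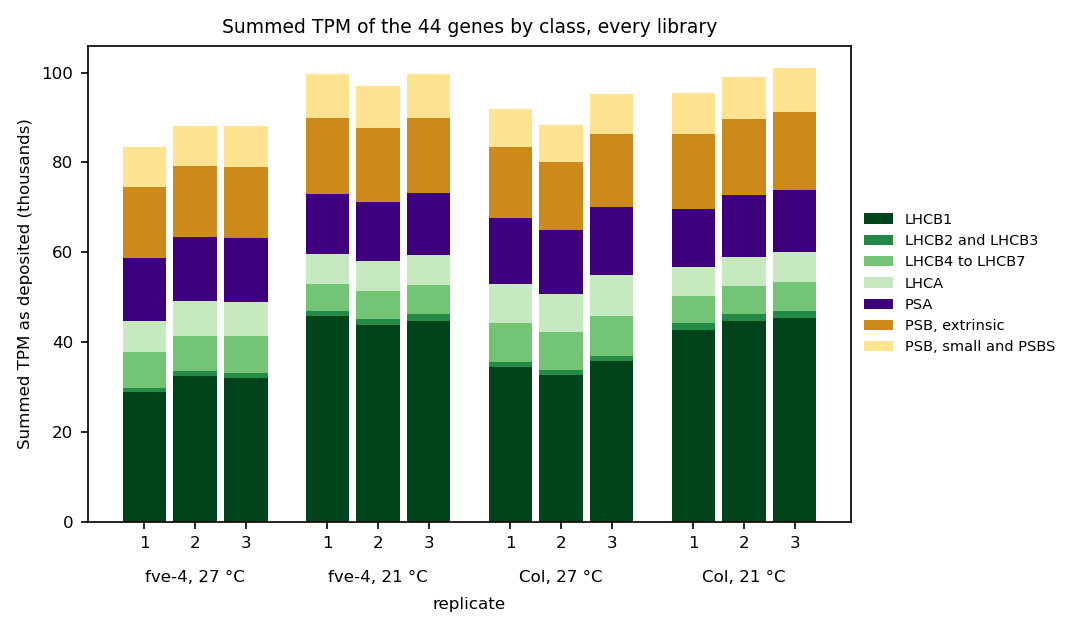
Summed TPM as deposited (vertical axis) of the 44 genes in each of the 12 libraries, stacked by class, with the replicate number under each bar. The lowest segment, LHCB1, is shorter in all 6 libraries at 27 °C (35738 TPM or less) than in all 6 at 21 °C (42643 TPM or more), while the segments above it together change little.

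Levels differed between the genes over more than 3 orders of magnitude on the scale of TPM recomputed with exon lengths, which is the one to use between genes. LHCB1.3 was the most abundant of the 44 in every group. In the whole table it stood first in all 12 libraries on the deposited TPM, but per exon length it stood first in 1 library and behind RBCS1A, the gene for a Rubisco small subunit, in the other 11. In TPM per exon length it averaged 15666 at 27 °C and 22236 at 21 °C in fve-4, and 17119 at 27 °C and 22945 at 21 °C in Col. It was followed in Col at 21 °C by PSBR (AT1G79040), a small subunit near the water-splitting site, at 5108 TPM, and by LHCB1.2 at 4395 TPM. At the low end of that group stood LHCB2.3, LHCB4.3, LHCB2.1 and LHCB7 at 8.04, 9.30, 11.7 and 11.8 TPM. Warmth changed this order: LHCB1.1 stood 23rd of 44 in Col at 21 °C at 1231 TPM and had 27.1 TPM in Col at 27 °C, below LHCB2.2 and LHCB2.1.

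After 12 h at 27 °C the members split, with rises and falls about equally frequent and with both occurring inside the same small families. In fve-4, 16 of the 44 members rose and 13 fell (36.4% and 29.5%), against 25.2% and 14.0% of all 19863 genes tested. The median log2 difference was -0.0042 over the members and 0.07 over all genes. In Col, 16 members rose and 15 fell (36.4% and 34.1%), against 36.7% and 25.1% of all genes, with medians of 0.047 over the members and 0.084 over all genes, so the share that rose was that of all genes. These calls used limma on log2(TPM + 1) with an adjusted p under 0.05, and the log2 differences below are on that scale. The warm changes of fve-4 and Col rest on different libraries: 26 members were called in both, 14 higher and 12 lower, and 0 had opposite directions, while among all genes called in both 94.1% had the same direction. Of the 7 mesophyll markers, 4 fell and 0 rose in each genotype. Of the 11 root markers tested, 1 rose and 1 fell in fve-4 and 1 rose and 5 fell in Col. Of the 6 markers of epidermis and guard cells, 2 rose and 2 fell in fve-4 and 4 rose and 0 fell in Col, and of the 3 of the vasculature 2 rose and 1 fell in fve-4 and 0 rose and 2 fell in Col. The part of these markers' tissues in the members' changes was not tested. The split of calls depends on the scaling: limma-voom on recovered reads gave 14 rises and 20 falls among the members in Col, and median-ratio scaling gave 12 rises and 14 falls in fve-4, where rises were 49.6% of the calls over all genes, against 64.2% without it. Quantile normalization moved the members the other way, with 16 rises and 9 falls in fve-4 and 17 rises and 12 falls in Col.

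**Figure D2:**
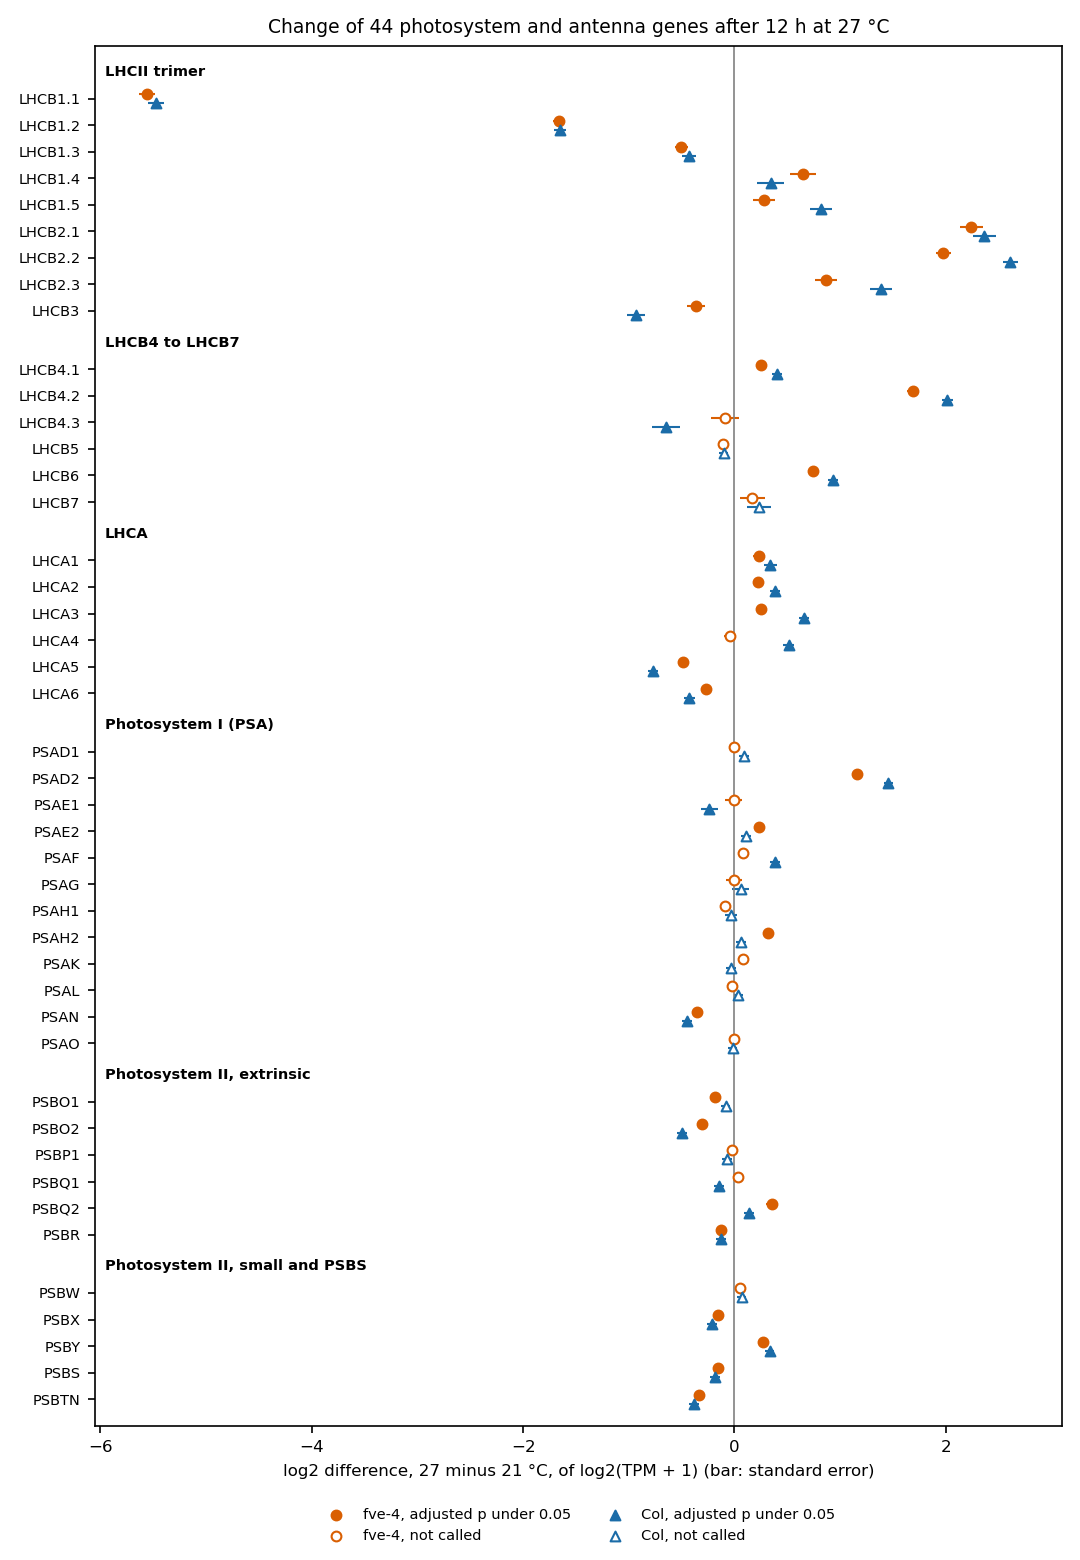
Log2 difference between 27 and 21 °C of the 44 genes (rows, by class) in fve-4 (circles) and Col (triangles), with standard errors as bars; filled symbols have an adjusted p under 0.05. LHCB1.1 lies far to the left at -5.56 in fve-4 and -5.47 in Col, LHCB2.1 and LHCB2.2 far to the right, and most photosystem subunits lie within 0.5 of 0.

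LHCB1.1 fell the most of all members. It had 45.5, 50.95 and 50.2 TPM in fve-4 at 27 °C, against 2684, 2238 and 2167 TPM in fve-4 at 21 °C. In Col LHCB1.1 had 39.5, 34.9 and 35.4 TPM at 27 °C, against 1613, 1724 and 1661 TPM at 21 °C. The warm and cool libraries lay far apart in both genotypes, at ratios of the mean TPM at 21 °C over that at 27 °C of 48.3 in fve-4 and 45.5 in Col. For LHCB1.1 the log2 differences were -5.56 (SE 0.075, adjusted p = 1.65e-14) in fve-4 and -5.47 (SE 0.075, adjusted p = 2.04e-14) in Col. Its neighbour LHCB1.2 had 1957, 1881 and 2020.1 TPM in fve-4 at 27 °C, against 6351, 6059.8 and 6152 TPM in fve-4 at 21 °C. In Col LHCB1.2 had 1848, 1791 and 2029.6 TPM at 27 °C, against 5613, 6106 and 6128 TPM at 21 °C. No library at 27 °C reached one at 21 °C. For LHCB1.2 the log2 differences were -1.66 (SE 0.057, adjusted p = 8.23e-10) in fve-4 and -1.66 (SE 0.057, adjusted p = 1.68e-10) in Col. LHCB1.3, the most abundant copy, had 20629.8, 21506 and 21515 TPM in fve-4 at 27 °C, against 30383, 29349 and 30566 TPM in fve-4 at 21 °C. In Col LHCB1.3 had 23032, 21919 and 24299 TPM at 27 °C, against 30314, 30998 and 31864 TPM at 21 °C. It fell far less than its neighbours, by 0.50 on the log2 scale in fve-4 (adjusted p = 2.92e-05) and by 0.43 in Col (adjusted p = 4.06e-05), with the groups again apart. Of the LHCB1 messenger RNA per exon length, LHCB1.1 held 0.158 ± 0.0005% in fve-4 at 27 °C and 5.28 ± 0.535% in fve-4 at 21 °C. In Col it held 0.107 ± 0.00780% at 27 °C and 3.77 ± 0.101% at 21 °C, while LHCB1.3 held between 67.3% and 70.3% in every group mean.

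LHCB1.4 (AT2G34430) and LHCB1.5, which lie back to back on chromosome 2 at 14524607 to 14525918 on the plus strand and 14522524 to 14523568 on the minus strand, rose where the cluster of chromosome 1 fell. LHCB1.4 had 1142, 1744 and 1636 TPM in fve-4 at 27 °C, against 875, 930.3 and 1030.2 TPM in fve-4 at 21 °C. In Col LHCB1.4 had 1338, 1254 and 1255 TPM at 27 °C, against 917, 1096 and 1030.4 TPM at 21 °C. For LHCB1.4 the log2 differences were 0.65 (SE 0.12, adjusted p = 0.000959) in fve-4 and 0.34 (SE 0.12, adjusted p = 0.0279) in Col. LHCB1.5 had 5011, 7175 and 6719 TPM in fve-4 at 27 °C, against 5402, 5131 and 4859 TPM in fve-4 at 21 °C. In Col LHCB1.5 had 8167, 7675 and 8119 TPM at 27 °C, against 4187, 4716 and 4684 TPM at 21 °C. For LHCB1.5 the log2 differences were 0.28 (SE 0.11, adjusted p = 0.0485) in fve-4 and 0.82 (SE 0.11, adjusted p = 1.28e-05) in Col. Every Col library at 27 °C was above every one at 21 °C for both genes, while in fve-4 the low replicate 1 at 27 °C overlapped the 21 °C libraries for LHCB1.5. That call in fve-4 was lost under 19 of 25 alternatives, with adjusted p between 0.000252 and 0.213, and the call of LHCB1.4 in Col under 7 of 25, with adjusted p up to 0.121. Without fve-4 replicate 1 at 27 °C the log2 differences in fve-4 were 0.84 for LHCB1.4 and 0.44 for LHCB1.5, and without replicate 2 LHCB1.5 stood at 0.18. Summed over copies, LHCB1.1 to LHCB1.3 fell, with log2 differences of -0.74 (SE 0.065, adjusted p = 1.43e-06) in fve-4 and -0.63 (SE 0.065, adjusted p = 1.49e-06) in Col. LHCB1.4 with LHCB1.5 rose, with 0.34 (SE 0.11, adjusted p = 0.0209) in fve-4 and 0.74 (SE 0.11, adjusted p = 3.74e-05) in Col.

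All 3 LHCB2 genes, whose protein is an LHCII subunit phosphorylated in state transitions, rose in both genotypes and were all of low abundance. LHCB2.1 had 69.4, 58.1 and 67.3 TPM in fve-4 at 27 °C, against 11.1, 13.1 and 14.7 TPM in fve-4 at 21 °C. In Col LHCB2.1 had 85.4, 77.7 and 79.3 TPM at 27 °C, against 13.01, 14.5 and 17.3 TPM at 21 °C. Every library at 27 °C was well above those at 21 °C. LHCB2.2 had 119.5, 112 and 127 TPM in fve-4 at 27 °C, against 29.5, 29.97 and 29.1 TPM in fve-4 at 21 °C. In Col LHCB2.2 had 158, 159 and 173 TPM at 27 °C, against 23.2, 26.02 and 28.7 TPM at 21 °C. Per exon length that gene reached the highest level of the family in every group. LHCB2.3 had 18.8, 21.97 and 24.1 TPM in fve-4 at 27 °C, against 11.00, 12.1 and 10.99 TPM in fve-4 at 21 °C. In Col LHCB2.3 had 26.1, 28.6 and 28.6 TPM at 27 °C, against 11.3, 10.2 and 8.68 TPM at 21 °C. The groups did not overlap for LHCB2.2 or LHCB2.3 either. LHCB2.2 rose the most of all members in Col (log2 difference 2.61, SE 0.072, adjusted p = 2.91e-11) and LHCB2.1 the most in fve-4 (log2 difference 2.24, SE 0.11, adjusted p = 1.47e-08), and as a sum the family rose by 1.91 in fve-4 and 2.39 in Col (SE 0.060 each). LHCB3 (AT5G54270), a subunit of the moderately bound LHCII trimers, fell. It had 862, 1032 and 977 TPM in fve-4 at 27 °C, against 1047, 1280.2 and 1386 TPM in fve-4 at 21 °C. In Col LHCB3 had 830.5, 761 and 795 TPM at 27 °C, against 1466, 1540.3 and 1541 TPM at 21 °C. For LHCB3 the log2 differences were -0.37 (SE 0.088, adjusted p = 0.00495) in fve-4 and -0.93 (SE 0.088, adjusted p = 6.91e-07) in Col. Its libraries at 27 °C were all below those at 21 °C in both genotypes, by a narrow margin in fve-4.

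**Figure D3:**
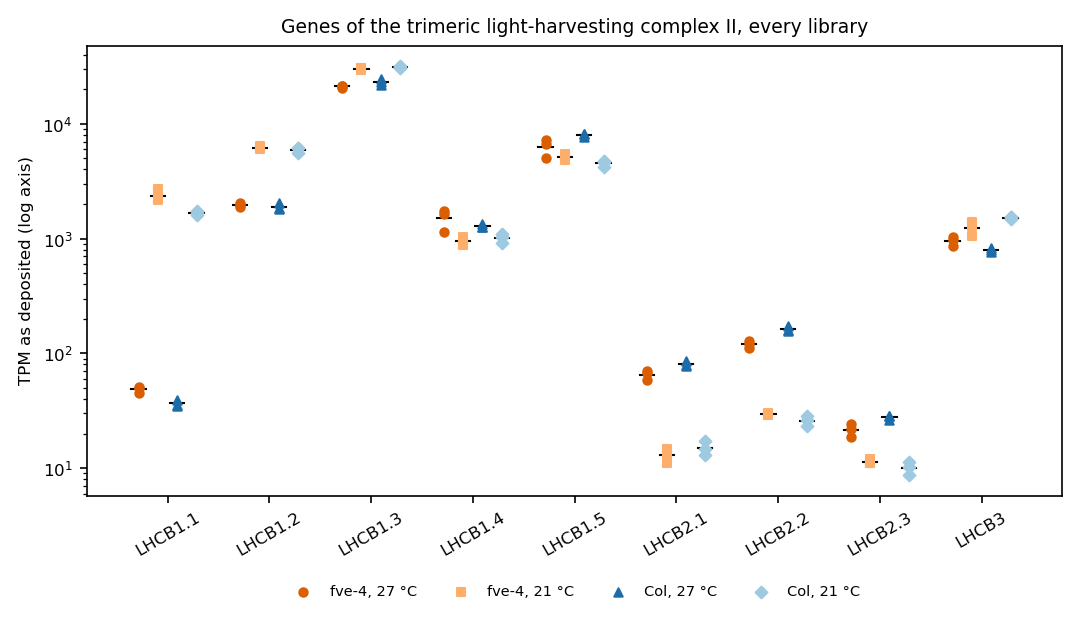
TPM as deposited (log axis) of the LHCB1, LHCB2 and LHCB3 genes in every library of the 4 groups; points are libraries and black lines are group means. LHCB1.1 lies at 51.0 TPM or less at 27 °C, against 1613 TPM or more at 21 °C, while LHCB2.1, LHCB2.2 and LHCB2.3 lie higher at 27 °C than at 21 °C in both genotypes.

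Among the other antenna genes of photosystem II, LHCB4.2 rose most. It had 933, 917 and 982 TPM in fve-4 at 27 °C, against 281, 288 and 306 TPM in fve-4 at 21 °C. In Col LHCB4.2 had 1311, 1265 and 1335 TPM at 27 °C, against 296, 339 and 332 TPM at 21 °C. For LHCB4.2 the log2 differences were 1.69 (SE 0.054, adjusted p = 5.37e-10) in fve-4 and 2.01 (SE 0.054, adjusted p = 2.91e-11) in Col. Its partner LHCB4.1, the more abundant copy, had 3781, 3880.5 and 3924 TPM in fve-4 at 27 °C, against 3243, 3192 and 3318 TPM in fve-4 at 21 °C. In Col LHCB4.1 had 3759, 3734 and 4048 TPM at 27 °C, against 2925, 2856 and 2939 TPM at 21 °C. It rose by less, 0.25 on the log2 scale in fve-4 (adjusted p = 0.000698) and 0.40 in Col (adjusted p = 3.56e-06). LHCB4.3 (AT2G40100), the rarest copy, had 8.48, 7.47 and 8.24 TPM in fve-4 at 27 °C, against 8.27, 7.35 and 10.5 TPM in fve-4 at 21 °C. In Col LHCB4.3 had 6.30, 6.27 and 5.59 TPM at 27 °C, against 12.1, 8.88 and 9.46 TPM at 21 °C. It fell in Col (log2 difference -0.65, SE 0.13, adjusted p = 0.000744) and was not called in fve-4 (log2 difference -0.087, SE 0.13, adjusted p = 0.641). LHCB6 (AT1G15820), the CP24 gene, had 1315 ± 44.8 TPM in fve-4 at 27 °C and 786 ± 42.4 TPM in fve-4 at 21 °C. It had 1517 ± 19.7 TPM in Col at 27 °C and 796 ± 31.6 TPM in Col at 21 °C (SD, n = 3 each). For LHCB6 the log2 differences were 0.74 (SE 0.048, adjusted p = 1.16e-07) in fve-4 and 0.93 (SE 0.048, adjusted p = 2.56e-09) in Col. LHCB5, the CP26 gene, and LHCB7 were called in neither, at log2 differences of -0.11 and 0.17 in fve-4 and -0.10 and 0.23 in Col.

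The antenna genes of photosystem I divided by kind of protein in Col, and less fully in fve-4. LHCA1 (AT3G54890), LHCA2 (AT3G61470) and LHCA3 (AT1G61520) of the main belt rose in both genotypes, and LHCA4 (AT3G47470) was called in Col. LHCA5 (AT1G45474) and LHCA6 (AT1G19150), minor proteins that link photosystem I to the NDH complex, fell in both. LHCA3 rose most of these, with 1773, 1966 and 1928 TPM in fve-4 at 27 °C, against 1541, 1591 and 1623 TPM in fve-4 at 21 °C. In Col LHCA3 had 2501, 2393 and 2606 TPM at 27 °C, against 1575, 1560.3 and 1603 TPM at 21 °C. For LHCA3 the log2 differences were 0.25 (SE 0.049, adjusted p = 0.00115) in fve-4 and 0.66 (SE 0.049, adjusted p = 6.35e-08) in Col. LHCA4 had 1023, 1141 and 1180.4 TPM in fve-4 at 27 °C, against 1149, 1149 and 1139.7 TPM in fve-4 at 21 °C. In Col LHCA4 had 1446, 1471 and 1470.0 TPM at 27 °C, against 956, 1069 and 1051 TPM at 21 °C. Its fve-4 groups overlapped and its Col groups did not. For LHCA4 the log2 differences were -0.042 (SE 0.055, adjusted p = 0.583) in fve-4 and 0.51 (SE 0.055, adjusted p = 2.35e-06) in Col. LHCA5 had 132, 129 and 128 TPM in fve-4 at 27 °C, against 189, 179 and 179.5 TPM in fve-4 at 21 °C. In Col LHCA5 had 127, 119.7 and 124 TPM at 27 °C, against 199.5, 218 and 217 TPM at 21 °C, with no overlap in either genotype. For LHCA5 the log2 differences were -0.49 (SE 0.045, adjusted p = 2.11e-06) in fve-4 and -0.77 (SE 0.045, adjusted p = 7.12e-09) in Col. LHCA6 averaged 148 ± 7.63 TPM in fve-4 at 27 °C and 178 ± 8.43 TPM in fve-4 at 21 °C, with 146 ± 4.17 TPM in Col at 27 °C and 196 ± 4.07 TPM in Col at 21 °C. LHCA1 and LHCA2 rose by 0.23 and 0.22 on the log2 scale in fve-4 and by 0.34 and 0.38 in Col. With median-ratio scaling their calls in fve-4 were lost (limma, adjusted p = 0.105 for LHCA1 and 0.0757 for LHCA2).

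Subunits of photosystem I moved less, with one exception, the second gene for the ferredoxin-docking subunit PSAD. PSAD2 (AT1G03130) had 1002, 1025 and 1033 TPM in fve-4 at 27 °C, against 445, 455 and 467 TPM in fve-4 at 21 °C. In Col PSAD2 had 1161, 1149 and 1244 TPM at 27 °C, against 425, 429 and 439 TPM at 21 °C. For PSAD2 the log2 differences were 1.16 (SE 0.041, adjusted p = 9.22e-10) in fve-4 and 1.46 (SE 0.041, adjusted p = 2.91e-11) in Col. PSAD1 (AT4G02770), whose protein is 93.3% identical, had 1813, 1825 and 1848 TPM in fve-4 at 27 °C, against 1843, 1776 and 1893 TPM in fve-4 at 21 °C. In Col PSAD1 had 1979, 1871 and 2043 TPM at 27 °C, against 1755, 1873 and 1911 TPM at 21 °C. It was called in neither genotype. For PSAD1 the log2 differences were -0.0062 (SE 0.048, adjusted p = 0.932) in fve-4 and 0.089 (SE 0.048, adjusted p = 0.12) in Col. The share of PSAD2 in the pair was 35.8 ± 0.180% in fve-4 at 27 °C and 19.9 ± 0.484% in fve-4 at 21 °C, with 37.6 ± 0.576% in Col at 27 °C and 18.9 ± 0.483% in Col at 21 °C (per exon length, SD, n = 3 each). PSAN (AT5G64040), a lumenal subunit at the plastocyanin side, fell in both genotypes, with 993, 1015 and 1026 TPM in fve-4 at 27 °C, against 1286, 1277 and 1317 TPM in fve-4 at 21 °C. In Col PSAN had 1043, 953 and 999.6 TPM at 27 °C, against 1289, 1383 and 1423 TPM at 21 °C. For PSAN the log2 differences were -0.35 (SE 0.047, adjusted p = 4.98e-05) in fve-4 and -0.45 (SE 0.047, adjusted p = 1.65e-06) in Col. PSAF (AT1G31330), which binds plastocyanin, rose in Col (log2 difference 0.38, SE 0.049, adjusted p = 1.28e-05) and not past the threshold in fve-4 (log2 difference 0.079, SE 0.049, adjusted p = 0.227).

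The other duplicated subunits of photosystem I changed little. PSAE1 (AT4G28750) and PSAE2 (AT2G20260) encode a small stromal subunit. PSAE1 had 94.6, 91.4 and 95.9 TPM in fve-4 at 27 °C, against 86.3, 95.04 and 103 TPM in fve-4 at 21 °C. In Col PSAE1 had 91.7, 89.6 and 107 TPM at 27 °C, against 105, 114 and 121 TPM at 21 °C. For PSAE1 the log2 differences were -0.0085 (SE 0.077, adjusted p = 0.943) in fve-4 and -0.24 (SE 0.077, adjusted p = 0.0162) in Col, where it fell although the libraries overlapped. PSAE2 had 819, 862 and 856 TPM in fve-4 at 27 °C, against 710.2, 721 and 732 TPM in fve-4 at 21 °C. In Col PSAE2 had 836, 755 and 809 TPM at 27 °C, against 713, 735 and 779 TPM at 21 °C. For PSAE2 the log2 differences were 0.23 (SE 0.047, adjusted p = 0.00167) in fve-4, where it rose, and 0.11 (SE 0.047, adjusted p = 0.0628) in Col. PSAH1 (AT3G16140) and PSAH2 (AT1G52230) encode the subunit where LHCII docks in state transitions. PSAH2 had 957, 911 and 949 TPM in fve-4 at 27 °C, against 759, 717 and 783 TPM in fve-4 at 21 °C. In Col PSAH2 had 931, 852 and 888 TPM at 27 °C, against 822, 864 and 874 TPM at 21 °C. For PSAH2 the log2 differences were 0.32 (SE 0.047, adjusted p = 0.000133) in fve-4, where it rose, and 0.061 (SE 0.047, adjusted p = 0.276) in Col. PSAH1 had 549, 621 and 588 TPM in fve-4 at 27 °C, against 603, 612 and 648 TPM in fve-4 at 21 °C. In Col PSAH1 had 607, 564 and 631 TPM at 27 °C, against 596, 615 and 631 TPM at 21 °C. The groups overlapped, and PSAH1 was called in no comparison. PSAG, PSAK, PSAL and PSAO, which hold the antenna or LHCII at the core, were not called for warmth, with log2 differences from -0.02 to 0.085 in fve-4 and from -0.032 to 0.059 in Col.

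**Figure D4:**
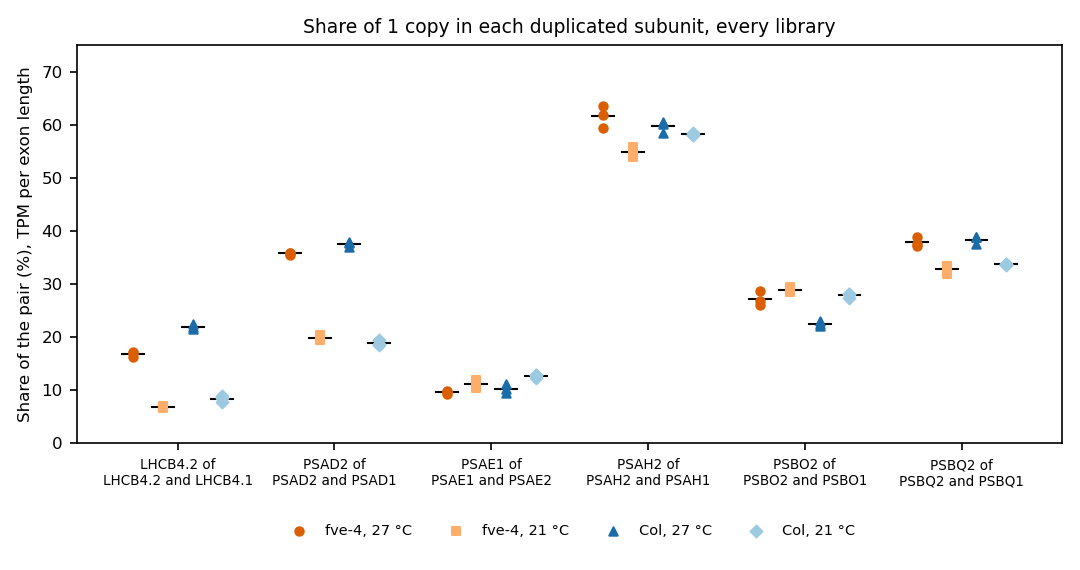
Share (vertical axis, %) of 1 copy in each of 6 pairs of duplicated subunits, from TPM per exon length, in every library of the 4 groups; points are libraries and black lines group means. PSAD2 and LHCB4.2 hold about 36% to 38% and 17% to 22% of their pairs at 27 °C, against about 19% to 20% and 7% to 8% at 21 °C, and the other pairs move by less than 10 percentage points.

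Of the 6 extrinsic subunits 1 rose and 3 fell in each genotype, and of the 5 small subunits with PSBS again 1 rose and 3 fell in each. Over all genes tested 25.2% rose and 14.0% fell in fve-4, and 36.7% and 25.1% in Col. PSBO2 (AT3G50820), the minor gene for the manganese-stabilising protein, fell in both genotypes, with 1338, 1239 and 1256 TPM in fve-4 at 27 °C, against 1637, 1567 and 1539 TPM in fve-4 at 21 °C. In Col PSBO2 had 1069, 1019.8 and 1117 TPM at 27 °C, against 1456, 1515 and 1552 TPM at 21 °C. For PSBO2 the log2 differences were -0.31 (SE 0.048, adjusted p = 0.000219) in fve-4 and -0.50 (SE 0.048, adjusted p = 8.74e-07) in Col. PSBO1 (AT5G66570), the major gene, had 3260.5, 3447 and 3379 TPM in fve-4 at 27 °C, against 3848, 3794 and 3778 TPM in fve-4 at 21 °C. In Col PSBO1 had 3514, 3530.5 and 3785 TPM at 27 °C, against 3783, 3806 and 3879.8 TPM at 21 °C. It fell in fve-4 (log2 difference -0.18, SE 0.045, adjusted p = 0.0063) and was not called in Col (log2 difference -0.083, SE 0.045, adjusted p = 0.123). PSBQ2 (AT4G05180), for another protein of the water-splitting side, rose in both genotypes, with 1382, 1425 and 1397 TPM in fve-4 at 27 °C, against 1041, 1099.9 and 1155 TPM in fve-4 at 21 °C. In Col PSBQ2 had 1429, 1356 and 1400.1 TPM at 27 °C, against 1198, 1269.8 and 1334 TPM at 21 °C. For PSBQ2 the log2 differences were 0.35 (SE 0.05, adjusted p = 9.16e-05) in fve-4 and 0.14 (SE 0.05, adjusted p = 0.026) in Col. PSBQ1 (AT4G21280) had 2154, 2063 and 2138 TPM in fve-4 at 27 °C, against 2051, 2025 and 2115 TPM in fve-4 at 21 °C. In Col PSBQ1 had 2077, 1969 and 2148 TPM at 27 °C, against 2155, 2302 and 2402 TPM at 21 °C. For PSBQ1 the log2 differences were 0.038 (SE 0.05, adjusted p = 0.584) in fve-4 and -0.15 (SE 0.05, adjusted p = 0.0204) in Col, where it fell. The Col calls of PSBQ2 and PSBQ1 were small and were each lost under some scalings, with adjusted p up to 0.585 and 0.206.

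Among the small subunits PSBTN (AT3G21055), a lumenal peptide of photosystem II, fell most and PSBY (AT1G67740) rose. PSBTN had 2525, 2568 and 2607 TPM in fve-4 at 27 °C, against 3218, 3171 and 3324 TPM in fve-4 at 21 °C. In Col PSBTN had 2231, 2083 and 2319 TPM at 27 °C, against 2889, 2833 and 2943 TPM at 21 °C, with no overlap. For PSBTN the log2 differences were -0.33 (SE 0.047, adjusted p = 8.3e-05) in fve-4 and -0.39 (SE 0.047, adjusted p = 7.44e-06) in Col. PSBY had 1137, 1198 and 1145 TPM in fve-4 at 27 °C, against 984, 919 and 979.7 TPM in fve-4 at 21 °C. In Col PSBY had 1215, 1211 and 1291 TPM at 27 °C, against 962, 967 and 1022 TPM at 21 °C, again apart. For PSBY the log2 differences were 0.27 (SE 0.045, adjusted p = 0.000356) in fve-4 and 0.33 (SE 0.045, adjusted p = 2.26e-05) in Col. PSBS (AT1G44575), the sensor that switches excess light energy to heat, fell by 0.16 on the log2 scale in fve-4 (adjusted p = 0.0155) and by 0.18 in Col (adjusted p = 0.00407). PSBX and PSBR fell by 0.15 and 0.13 in fve-4 and by 0.21 and 0.13 in Col. The call of PSBR was lost under 13 of 26 alternatives in fve-4 (adjusted p up to 0.34) and 6 of 26 in Col, that of PSBX in fve-4 under 4 and that of PSBS in fve-4 under 5. PSBP1 and PSBW were not called for warmth.

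The series asks how FVE takes part in the warm response, so the warm changes of the 2 genotypes were compared directly, Col's change being subtracted from that of fve-4. The difference was called in 15 of the 44 members, positive in 6 and negative in 9 (13.6% and 20.5%), against 14.4% and 18.0% of all genes tested, so the members' share was near that of all genes. In 13 of the 15 the warm change was smaller in size in fve-4, and over all 6436 genes with a called difference it was smaller in fve-4 in 85.8%. Cell type markers moved in the same comparison: 1 of 6 markers of epidermis and guard cells was positive and 4 negative, 2 of 11 root markers and 2 of 3 vasculature markers were positive and 0 negative, and 0 of 7 mesophyll markers were called. Their part in the members' differences was not tested. The most negative was LHCB2.2, whose rise was smaller in fve-4 (log2 difference -0.63, SE 0.10, adjusted p = 0.000463). It was followed by LHCA4, a belt protein with far-red chlorophylls (log2 difference -0.56, SE 0.078, adjusted p = 0.000177). LHCA4 rose in Col and was not called in fve-4. LHCA3 and PSAD2, like LHCB2.2, rose less in fve-4. Their differences were -0.41 (SE 0.069, adjusted p = 0.000649) for LHCA3 and -0.30 (SE 0.057, adjusted p = 0.00168) for PSAD2. LHCB2.3, LHCB1.5, LHCB4.2, PSAF and LHCB6 made up the rest of the negative ones, from -0.54 to -0.19. As a sum of copies, LHCB1.4 with LHCB1.5 was not called (log2 difference -0.40, SE 0.15, adjusted p = 0.0591). The sum of the LHCB2 genes was called (log2 difference -0.48, SE 0.084, adjusted p = 0.000876). Positive differences were led by LHCB3, which fell less in fve-4 (log2 difference 0.56, SE 0.12, adjusted p = 0.00385). LHCB4.3 stood at 0.56 (SE 0.19, adjusted p = 0.0345) and LHCA5 at 0.28 (SE 0.064, adjusted p = 0.00446). PSAH2 stood at 0.26 (SE 0.067, adjusted p = 0.00986), PSBQ2 at 0.21 (SE 0.07, adjusted p = 0.0337) and PSBO2 at 0.19 (SE 0.068, adjusted p = 0.0474). PSAH2 and PSBQ2 were those whose rise was larger in fve-4. The LHCB1 cluster of chromosome 1 did not differ past the threshold, at -0.089 (SE 0.11, adjusted p = 0.56) for LHCB1.1, -0.0088 (SE 0.08, adjusted p = 0.945) for LHCB1.2 and -0.075 (SE 0.088, adjusted p = 0.552) for LHCB1.3. Without fve-4 replicate 2 at 21 °C, 3 positive differences were called, not 6. LHCB6 lost its call under 17 of 25 alternatives, PSBO2 under 15, PSBQ2 under 10 and LHCB4.3 under 8. Without fve-4 replicate 1 at 27 °C, LHCB1.4 gained a call at 0.50 (adjusted p = 0.00379) and LHCB1.5 kept its own at -0.38 (adjusted p = 0.0076).

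At 27 °C fve-4 had less messenger RNA than Col for several of the genes that warmth raised. Of the 44 members 6 were higher and 13 lower in fve-4 (13.6% and 29.5%), against 20.9% and 17.6% of all genes, with medians of -0.032 over the members and 0.024 over all genes. This comparison and the one at 21 °C share libraries with the warm changes above. The lower ones included all 3 LHCB2 genes (-0.31 for LHCB2.1, -0.45 for LHCB2.2 and -0.35 for LHCB2.3), and the lowest was LHCB4.2 (log2 difference -0.47, SE 0.054, adjusted p = 3.54e-05). LHCA3, LHCA4 and LHCA2 were lower too (-0.40, -0.39 and -0.23), as were PSAD2, LHCB1.5, LHCB5, LHCB6, PSAF and PSBP1 (AT1G06680). PSAF had 1986, 2164 and 2097 TPM in fve-4 and 2599, 2625 and 2847 TPM in Col (log2 difference -0.37, SE 0.049, adjusted p = 9.62e-05). PSBP1, an extrinsic subunit of the water-splitting side, had 2575, 2616 and 2676 TPM in fve-4 and 2932, 2809 and 2980.5 TPM in Col (log2 difference -0.15, SE 0.046, adjusted p = 0.0214). LHCB1.1 was the most raised in fve-4, although at a low level (log2 difference 0.41, SE 0.075, adjusted p = 0.00099). PSAK (AT1G30380), which attaches antenna to photosystem I, had 1654, 1590.2 and 1685 TPM in fve-4 and 1418, 1286 and 1351 TPM in Col, with no overlap (log2 difference 0.28, SE 0.048, adjusted p = 0.000529). LHCB4.3, LHCB3, PSBO2 and PSBTN were the other higher ones (0.36, 0.26, 0.26 and 0.22). LHCB4.3 lost this call under 14 of 26 alternatives, LHCB3 under 9, PSBP1 under 8 and LHCB2.1 under 7 of 25, and LHCB1.5 stood at -0.20 without fve-4 replicate 1 (adjusted p = 0.0397). As a sum of copies, LHCB1.4 with LHCB1.5 was not called at 27 °C (log2 difference -0.265, SE 0.107, adjusted p = 0.0653). The sum of the LHCB2 genes was called lower (log2 difference -0.40, SE 0.060, adjusted p = 0.000218). In the same comparison 1 of 7 mesophyll markers was higher and 1 lower, and 6 of 11 root markers tested were higher and 0 lower. Of the markers of epidermis and guard cells 0 of 6 were higher and 5 lower, and 2 of 3 vasculature markers were higher and 1 lower. The part of tissue makeup in the members' differences was not tested.

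At 21 °C fewer members differed between the genotypes. In fve-4, 6 were higher and 8 lower (13.6% and 18.2%), against 15.3% and 8.49% of all genes, with medians of -0.037 over the members and 0.046 over all genes. LHCB1.1 was again the most raised, with 2684, 2238 and 2167 TPM in fve-4 and 1613, 1724 and 1661 TPM in Col (log2 difference 0.50, SE 0.075, adjusted p = 0.000498). LHCA1 had 1597, 1505 and 1488 TPM in fve-4 and 1253, 1328 and 1297 TPM in Col, every fve-4 library above every Col library (log2 difference 0.24, SE 0.06, adjusted p = 0.0112). PSAK, PSBTN, LHCB4.1 and LHCA4 were higher by 0.17, 0.16, 0.16 and 0.16. LHCB3 was lower (log2 difference -0.30, SE 0.088, adjusted p = 0.0248) where it was higher at 27 °C. It stood at -0.19 without fve-4 replicate 1 at 21 °C, where the call was lost (adjusted p = 0.0931), and the call was lost under 6 of 26 alternatives. PSAE1 (-0.26), LHCA5 (-0.21), PSBQ2 (-0.21), PSBP1 (-0.20), LHCB5 (-0.19), PSAH2 (-0.18) and PSBQ1 (-0.15) were the other lower ones. LHCA4 lost its call under 16 of 26 alternatives, PSBQ1 under 14, PSAK and PSBTN under 8, LHCB4.1 under 7 and PSAE1 under 6. Of the markers, 3 of 6 for epidermis and guard cells and 1 each for mesophyll, root and vasculature were lower in fve-4 at 21 °C and 0 were higher. The split at 21 °C rests on the scaling: it was 1 higher and 11 lower with median-ratio scaling, 2 and 11 with limma-voom, and 7 and 5 with quantile normalization. Over all genes higher calls were 47.4% of the calls with median-ratio scaling, against 64.3% without it. Without fve-4 replicate 3, Col replicate 1 or Col replicate 2 at 21 °C, 3 members were called higher, and the lower calls were 5 without fve-4 replicate 1 or 2, 4 without Col replicate 2 and 3 without Col replicate 3. Over the 5 comparisons 7 members were never called: LHCB7, PSAD1, PSAG, PSAH1, PSAL, PSAO and PSBW. Of these LHCB7 was measured less closely, with an SE of 0.12 at 21 °C, against 0.042 for PSAL.

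**Figure D5:**
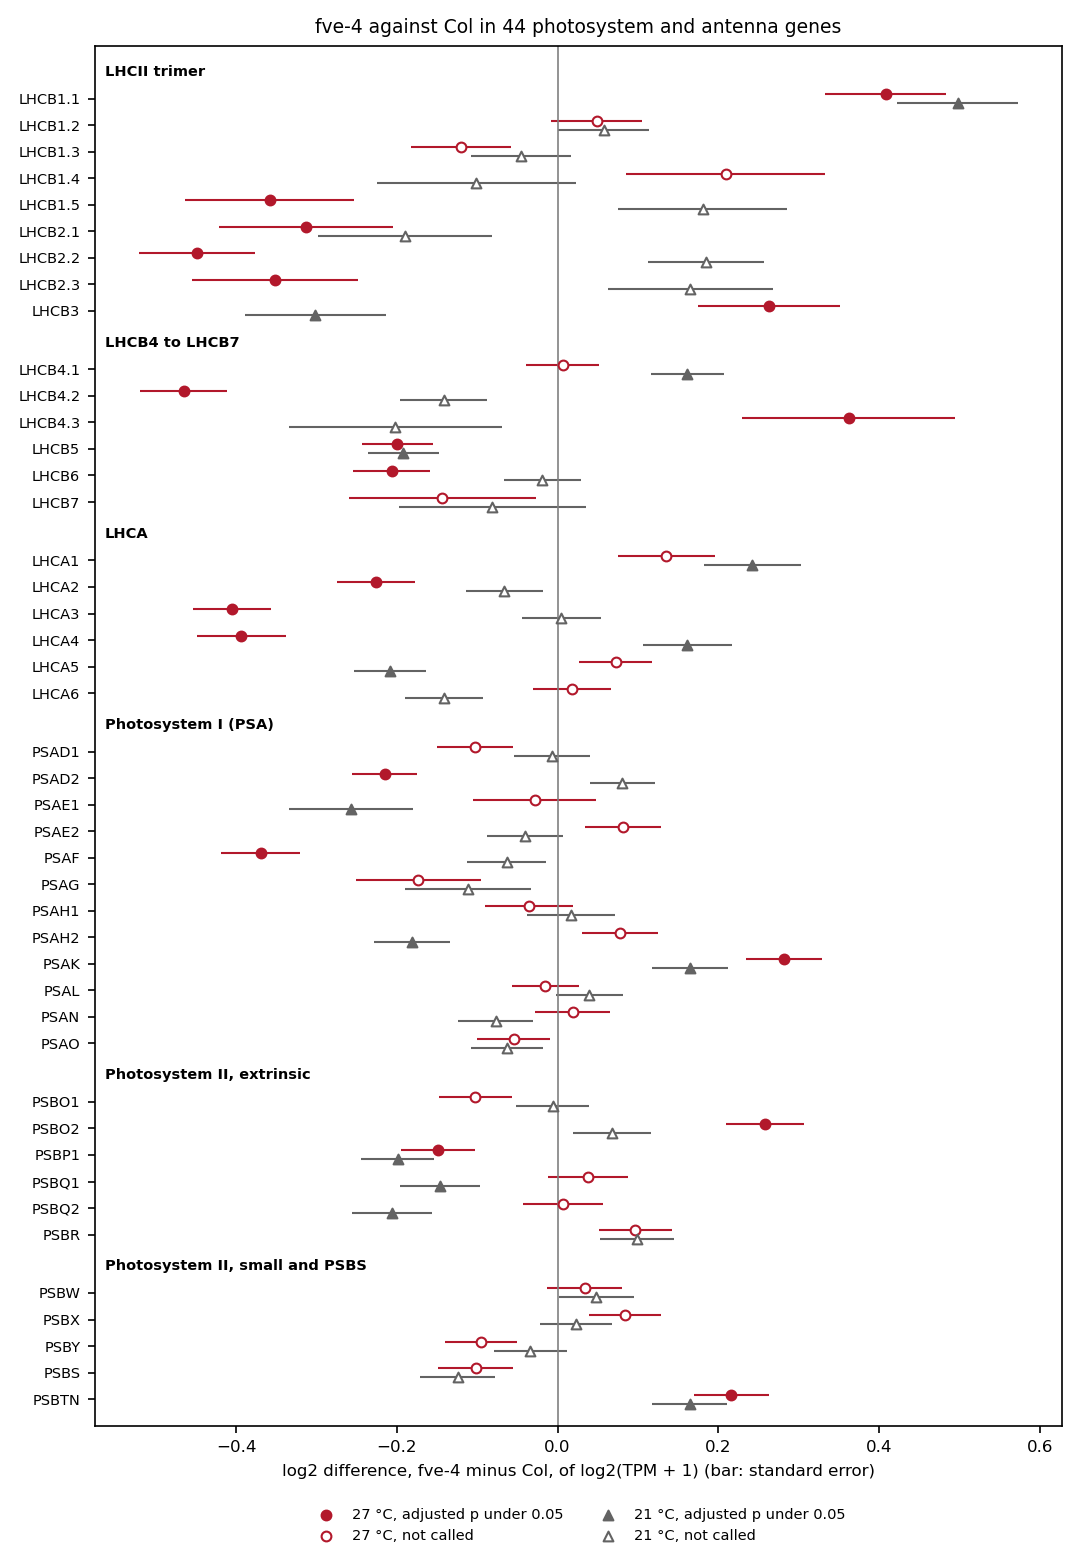
Log2 difference between fve-4 and Col of the 44 genes (rows, by class) at 27 °C (circles) and 21 °C (triangles), with standard errors as bars; filled symbols have an adjusted p under 0.05. At 27 °C LHCB2, LHCB4.2, LHCA3, LHCA4 and PSAF lie left of 0, LHCB1.1 lies right of 0 at both temperatures, and LHCB3 lies right at 27 °C and left at 21 °C.

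Genes that work with the photosystems were read from the same fit, and the values in parentheses are log2 differences. The counts stand against 25.2% of all genes higher and 14.0% lower in fve-4 after warming, and 36.7% and 25.1% in Col, so rises outnumbered falls over all genes too. Of 11 genes of electron transport and the ATP synthase, 2 rose and 9 fell in fve-4 at 27 °C, and 2 rose and 8 fell in Col. FNR2, a ferredoxin-NADP reductase, fell most (-1.004 in fve-4, -1.17 in Col), and the ferredoxin FD1 and the plastocyanin PETE1 rose (0.69 and 0.58 in fve-4, 0.24 and 0.18 in Col). FD1 was higher in fve-4 than in Col at both temperatures (0.79 at 27 °C, 0.34 at 21 °C), and 6 genes of that list were higher and 1 lower in fve-4 at 27 °C, against 20.9% and 17.6% of all genes. Of 6 genes for inserting antenna proteins or making chlorophyll b, 1 rose and 3 fell in fve-4 and 2 rose and 2 fell in Col. CAO (AT1G44446), the enzyme that makes chlorophyll b, rose most (0.93 in fve-4, 1.23 in Col) and was lower in fve-4 than in Col at 27 °C (-0.37). CPFTSY, a receptor of the chloroplast signal recognition particle, fell (-0.41 in fve-4, -0.46 in Col). Of 6 LHC-like genes, 4 fell and 0 rose in each genotype, the light-stress genes ELIP1 and ELIP2 most (-1.05 and -0.94 in fve-4, -1.02 and -1.32 in Col). Of the 10 genes of antenna switching and photoprotection, 6 rose and 2 fell in fve-4 and 7 rose and 2 fell in Col. PGRL1B, a factor of cyclic electron flow, rose most (0.74 in fve-4, 0.81 in Col). STN8, the kinase of photosystem II core proteins, rose in both and was lower in fve-4 at 27 °C (-0.34). Of 8 assembly factors, 0 rose and 5 fell in fve-4 and 1 rose and 6 fell in Col, PSB28 most in both (-0.69 in fve-4, -1.20 in Col). Among 6 regulators of these genes 2 rose and 1 fell in fve-4, and 2 rose and 3 fell in Col. GLK2 rose in both genotypes (0.85 in fve-4, 0.46 in Col). HY5 fell in Col (-0.74) and was higher in fve-4 than in Col at 27 °C (0.60).

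The promoter windows were last set beside the warm changes, as a description made with those changes known. CACGTG stood in 10 of the 44 windows (22.7%), against 6.5% of 27444 windows of the same length. GATAAG stood in 9 (20.5%, against 12.3%), AAAAATCT in 5 (11.4%, against 6.7%), AAAATATCT in 1 (2.3%, against 2.4%) and CCAATC in 11 (25.0%, against 10.2%). Of the 11 members with CCAATC, 9 rose and 1 fell in fve-4 and 10 rose and 1 fell in Col, while of the 33 without it 7 rose and 12 fell in fve-4 and 6 rose and 14 fell in Col. The 11 were LHCB1.3, LHCB1.5, LHCB2.1, LHCB2.2, LHCB2.3, LHCB4.1, LHCB4.2, LHCA1, LHCA3, LHCA4 and PSBQ2, of which LHCB1.3 was the one that fell, and several are copies of 1 ancestral gene, so that they are not independent. Over all genes tested the shares were close: 25.9% of those with CCAATC and 25.1% of those without rose in fve-4, and 39.4% and 36.4% in Col. Of the 9 members with GATAAG 6 rose and 0 fell in each genotype, and of the 10 with CACGTG 6 rose and 1 fell in fve-4 and 5 rose and 2 fell in Col. Over all genes tested with GATAAG, 28.2% rose and 14.8% fell in fve-4 and 40.5% and 23.2% in Col, and with CACGTG 27.5% rose and 14.4% fell in fve-4 and 40.2% and 24.4% in Col. A match is a run of letters and not a shown binding site.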

How the data were processed

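Whole 7-day-old Arabidopsis seedlings gave 12 messenger RNA libraries (NEBNext Ultra, per the labels' protocols), 3 in each of 4 groups. Every library of the expression table was analysed. The deposited values are TPM per gene, computed by the authors; each column sums to 1000000. The submitters' processing notes name fastp 0.20.1, HISAT2 2.1.10 and DESeq2 1.26.0, and the labels name the genome TAIR10; the counting tool and its strand setting are not given in the sources used here. In 99.98% of genes with a span in the reference the TPM were whole multiples of 1 read over the gene span (within 0.02 reads), so introns count in the deposited lengths; levels between genes were therefore compared on TPM recomputed with exon lengths.

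The limma test (3.58.1, R 4.3.3; moderated, variance trend, two-sided) was fitted to log2(TPM + 1) of the 19863 genes that reached 1 TPM in 3 or more libraries, as 4 group means with 8 residual degrees of freedom. Contrasts were 27 against 21 °C within each genotype, fve-4 against Col at each temperature, and the difference of the warm changes. p-values were adjusted by Benjamini-Hochberg over all genes and called under 0.05; fold changes of low genes are understated by the pseudocount. The code was tested on simulated data. Groups came from the labels. The labels do not say that a replicate number marks a shared batch, so libraries were not paired in the main fit. The members and lists were chosen with earlier results of these data known. Named with every library's value were the LHCB1, LHCB2 and LHCB3 genes and the copies of duplicated subunits, and per comparison and class the called genes with the largest rise and fall; in each pathway list the same rule named genes. STN8 and PETE1 were added after their values were seen. Alternatives were another pseudocount, filter, scaling, variance prior, threshold, gene length, limma-voom on recovered reads (23821 genes recovered), the replicate block, the 2 compared groups alone and leaving out each library. Sequences, coordinates and transcripts came from RefSeq TAIR10.1, which holds 99.24% of the table's loci.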

Additional observations from a re-analysis of the deposited data

Results flagged for a closer look

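For 15 of the 44 genes the change with warmth differed between fve-4 and Col by a test of the difference itself (the interaction term of the limma fit, change in fve-4 minus change in Col, adjusted p under 0.05 over all genes). Among the antenna genes of photosystem II the differences on the log2 scale were -0.54 for LHCB1.5, -0.63 for LHCB2.2, -0.52 for LHCB2.3, 0.56 for LHCB3, -0.32 for LHCB4.2, 0.56 for LHCB4.3 and -0.19 for LHCB6. Among those of photosystem I they were -0.41 for LHCA3, -0.56 for LHCA4 and 0.28 for LHCA5. Among the subunits they were -0.30 for PSAD2, -0.31 for PSAF, 0.26 for PSAH2, 0.19 for PSBO2 and 0.21 for PSBQ2. LHCB1.5 shares all its sequence with an antisense gene, and fve-4 replicate 1 at 27 °C, with 5011 TPM against 7175 and 6719 TPM in the other replicates, moves its value to -0.38 when left out. Summed with LHCB1.4 its difference was -0.40 and was not called (limma, adjusted p = 0.0591). The share of members with a called difference was near that of all genes.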

How the results depend on the processing

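Over 220 values (44 genes in 5 comparisons) and up to 26 alternatives, 5321 of 5636 alternative values kept their side of the threshold. A call was lost in 248 and gained in 67. Among values called in the main fit or in the alternative, 0 reversed direction. Values called in neither could change sign, as the warm change of LHCA4 in fve-4 did when 1 library was left out (-0.0845 to 0.0187). Of 108 calls, 69 changed under none. LHCB1.3 has the highest deposited TPM of every library, so quantile normalization sets its differences to 0 by construction. The number of members with a positive difference between the warm changes was 6, against 3 without a filter or at an adjusted p under 0.01, and 3 to 7 when 1 library was left out. At 21 °C the 6 members higher in fve-4 became 3 without a filter or without the variance trend, 1 with median-ratio scaling or at an adjusted p under 0.01, 2 with limma-voom and 3 to 7 when 1 library was left out. The 8 lower became 5 with quantile normalization or without the variance trend, 4 at an adjusted p under 0.01 and 3 to 10 when 1 library was left out. The cause was not tested. The ratio of summed TPM at 27 °C over 21 °C was 0.875 in fve-4 and 0.932 in Col; it was 1.02 and 1.06 without the LHCB1 copies and 0.949 and 1.02 without LHCB1.3, as those make up much of the sum. Deviations of libraries with the same replicate number correlated weakly, from -0.135 to 0.187 over 18 pairs, 2 of them above 0.1. Weak correlations cannot exclude a shared batch. The replicate block gave 15 rises and 14 falls in fve-4 and 16 and 16 in Col. It gave 7 positive and 9 negative differences between the warm changes. Between the genotypes it gave 6 higher and 13 lower in fve-4 at 27 °C and 6 and 8 at 21 °C. The rarest member, LHCB4.3, had 49 reads in its lowest library. Standard errors of the warm changes were 0.13 for LHCB4.3 and 0.12 for LHCB7, against 0.042 for PSAL. LHCB1.4, with far more reads, also stood at 0.12. The part of depth in the calls was not tested.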
